A study of Mus musculus with 4 samples.

Results

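The change that siRNA against Tfe3 and Tfeb made to the iron response of mouse RAW264 macrophages was described gene by gene, from 4 arrays with 1 array in each group. For each gene the iron response in siTfe3/Tfeb cells, on a log2 scale, was taken first, and the iron response in siGFP cells was subtracted from it. The arrays carried 24788 named genes. Of these, 13825 had a signal well above background on all 4 arrays and so had a value, by the brightest probe of the gene. Most of the account rests on the 9718 bright genes, whose mean level over the arrays lay above -1, where the level is the log2 signal minus the 75th percentile of the array. The other 4107 genes are called dim.

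RAW264 cells are an established macrophage-like line of BALB/c mouse origin. The siTfe3/Tfeb iron group received small interfering RNA (siRNA) against both Tfe3 and Tfeb, and 48 hours after transfection it was given ferric chloride at 500 µM for 24 hours. The siTfe3/Tfeb group received the same siRNA and no iron. The siGFP iron group received siRNA against green fluorescent protein, which these cells do not carry, and the same iron exposure, and the siGFP group received that siRNA and no iron. All groups were transfected, so no group shows cells that met no siRNA. Groups of 1 array allow no test and no replicate check, and no p-value was computed. Each array measured the RNA of a whole culture, so a smaller share of cells that express a gene and less RNA per cell cannot be told apart.

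Tfe3 and Tfeb belong to the MiT/TFE family of transcription factors. They bind short E-box letters in the promoters of lysosomal and autophagy genes, and they move to the nucleus when lysosomes are stressed or nutrients are short. In macrophages they are also known to act on inflammatory genes, and in other cells they are known to regulate Atf4, the factor of the integrated stress response. Macrophages take up and recycle iron from red blood cells, store it in ferritin and export it through ferroportin, and excess iron gives oxidative stress.

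Array brightness, as the processed signal's 75th percentile, was 592.7 in siTfe3/Tfeb iron, 636.3 in siTfe3/Tfeb, 626.9 in siGFP iron and 619.4 in siGFP, and no spot was saturated. Of 12 macrophage markers 11 were measured, all of them bright, and Mrc1 was not well above background on all arrays. Of markers of other cells, 1 of 8 for fibroblasts, 2 of 7 for epithelium, 2 of 7 for endothelium, 4 of 8 for lymphocytes and 1 of 6 for neutrophils were measured. The only error available was the spread of repeated spots of 1 probe on 1 array. It gave an SD of the difference of responses (the spot SD) of 0.0884 for levels above 4, of 0.147 from 0 to 4 and of 0.154 from -1 to 0, and of 0.456 at or below -1. The value for -1 to 0 rests on 9 combinations of probe and array. Variation between cultures, extractions and labellings is not part of the spot SD. The siRNA targets moved little with iron. Tfe3 stood at 3.63 in siTfe3/Tfeb iron, 3.60 in siTfe3/Tfeb, 4.17 in siGFP iron and 4.33 in siGFP, so it was lower in both siTfe3/Tfeb groups and its responses differed by 0.17. The brightest Tfeb probe had -0.81, -1.0, -0.98 and -0.86 in the same order, which gives no clear reduction, and its difference of responses was 0.30, against -0.16 to 0.12 for 3 other, dim Tfeb probes. Mitf, a relative of both targets, had 0.04. The dim relative Tfec had 0.69 with a spot SD of 0.456.

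Few bright genes had an iron response that differed 2-fold between the siRNA groups. The response was at least 2-fold higher in siTfe3/Tfeb cells for 11 bright genes (0.113% of 9718) and at least 2-fold lower for 8 (0.0823%). The higher set held immediate early factors, acute phase proteins, inflammatory and chemokine genes and surface receptors. The lower set held enzymes of mitochondrial folate and cholesterol ester metabolism, a cytochrome oxidase subunit and an adhesion receptor. Dim genes passed the same limit more often, 28 of 4107 with a higher response (0.682%) and 40 with a lower one (0.974%), where the spot SD was also larger. Over all measured genes together the counts were 39 (0.282%) and 48 (0.347%). The genes nearest the limit inside were Clec4n at 1.06 and Angptl6 at -1.01, and those nearest outside were Mogat1 at 0.95 and Gpt2 at -0.997.

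A higher response took different forms. Of the 11 genes, 5 were at least 1.5-fold higher with iron in siTfe3/Tfeb cells and under 1.5-fold in siGFP cells, 3 were higher with iron in both and more so in siTfe3/Tfeb cells, and 3 were lower with iron in siGFP cells and less so or not in siTfe3/Tfeb cells. Of the 8 genes with the lower response, 6 had a 1.5-fold lower level with iron in siTfe3/Tfeb cells and under 1.5-fold in siGFP cells. The other 2 were higher with iron in siGFP cells and less so or not in siTfe3/Tfeb cells. No bright gene was 1.5-fold higher with iron in one siRNA group and 1.5-fold lower in the other.

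**Figure D1:**
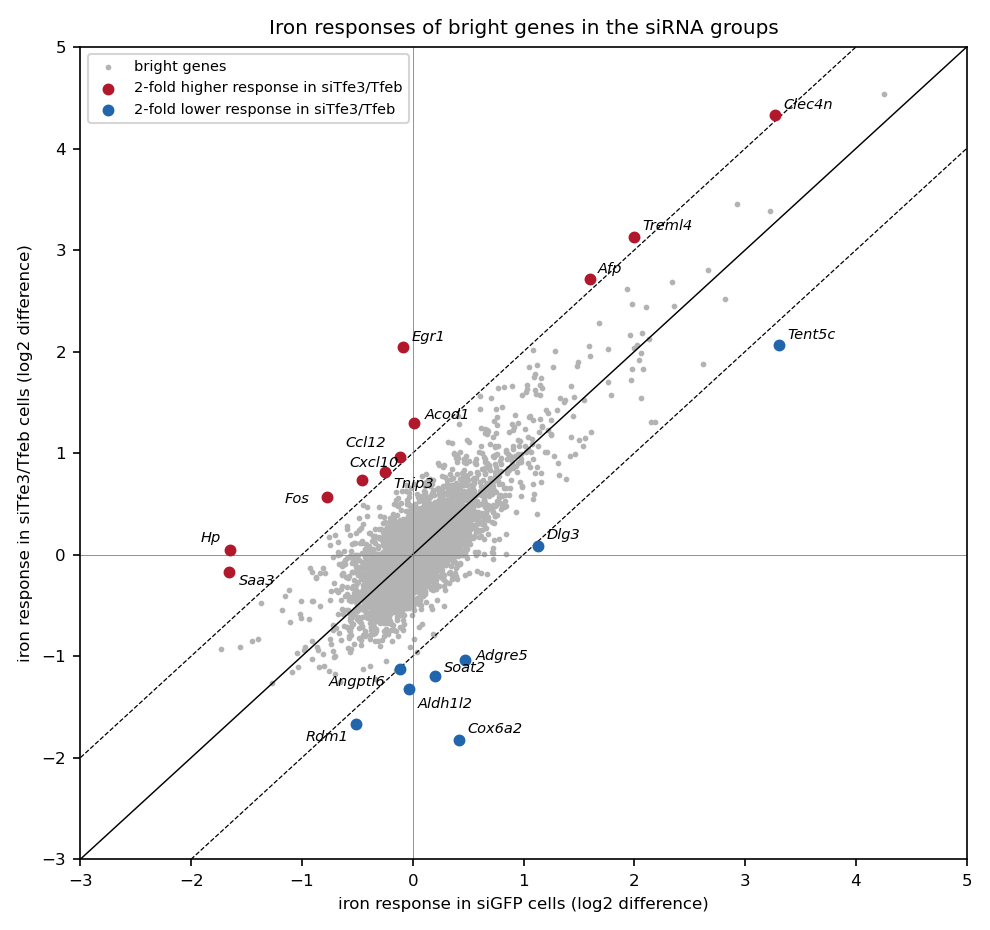
The iron response in siTfe3/Tfeb cells (vertical axis) is plotted against that in siGFP cells (horizontal axis), both as log2 differences, with 1 point for each of 9718 bright genes. The solid line marks equal responses and the dashed lines a 2-fold difference. The 11 red genes lie above the upper dashed line and the 8 blue genes below the lower one.

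Immediate early transcription factors are made within minutes of many stimuli. Egr1, a zinc finger factor of this class with the highest difference of all bright genes, had levels of 0.26 in siTfe3/Tfeb iron, -1.78 in siTfe3/Tfeb, 1.12 in siGFP iron and 1.21 in siGFP. The siTfe3/Tfeb array without iron was the low one, and the other 3 lay within a narrower range. Egr1 was therefore 4.11-fold higher with iron in siTfe3/Tfeb cells and had a response of -0.09 in siGFP cells, a difference of 2.13 with a spot SD of 0.261. Fos, a subunit of the AP-1 factor, had -0.70, -1.27, 0.06 and 0.84 in the same order of arrays. It was 1.48-fold higher with iron in siTfe3/Tfeb cells and 1.72-fold lower in siGFP cells, a difference of 1.35, and both siTfe3/Tfeb arrays lay below both siGFP arrays. The AP-1 subunit Fosl1 was dim and differed by 1.95 (3.0 in siTfe3/Tfeb cells and 1.05 in siGFP cells, spot SD 0.403). Of 22 measured AP-1 and Egr factors 16 lay above 0 and 6 below, with a median difference of 0.20, where the median of all measured genes was 0.00 (6916 above and 6909 below). Egr2 had 0.56 and Klf4 -0.54, so the list did not move one way.

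Genes that MAP kinase signalling induces, many of which restrain it, were mostly on the higher side. Of 19 measured, 16 lay above 0 and 3 below, with a median of 0.40 (0.23 after normexp correction with quantile scaling), and 5 were 1.5-fold higher against 1 lower. For comparison, 2.6% of all measured genes had a 1.5-fold higher response and 2.49% a 1.5-fold lower one. Phlda1 had responses of 1.87 in siTfe3/Tfeb cells and 1.13 in siGFP cells. Rgs16, which shortens G protein signalling, had 2.00 and 1.29, and the Ets factor Etv4 had 0.88 and 0.24. Rgs2 was the exception, at -0.64 by its bright probe and 0.11 by a dim one. The phosphatase gene Dusp8 had 0.77, though it was dim.

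Hp and Saa3, of the acute phase genes, had a lower level with iron in siGFP cells and little difference with iron in siTfe3/Tfeb cells. Hp encodes haptoglobin, the plasma protein that captures free haemoglobin. Its levels were -0.32 in siTfe3/Tfeb iron, -0.37 in siTfe3/Tfeb, -1.38 in siGFP iron and 0.27 in siGFP. The siTfe3/Tfeb arrays were nearly equal and the siGFP iron array was the low one, so the responses were 0.05 and -1.65 and differed by 1.70 (spot SD 0.263). The Hp probe lies on chromosome 8, 112099045 to 112099104 (array design coordinates, mm9). Saa3, a serum amyloid A protein that macrophages make in inflammation, had 0.21, 0.38, -0.38 and 1.28 in the same order (probe on chromosome 7, 53967559 to 53967618). Here the siGFP array without iron was the high one, and the response was -0.17 in siTfe3/Tfeb cells and -1.66 in siGFP cells, a difference of 1.49 with a spot SD of 0.149. The formyl peptide receptor gene Fpr2, of the same list, was dim, with responses of -0.76 and -2.53. Over the list of acute phase, complement and formyl peptide receptor genes 14 of 23 were measured, and only 7 of these were bright. Of the 14, 10 lay above 0 and 4 below, with a median difference of 0.51. That median was 0.12 with no filter on background and lay between 0.37 and 0.58 in the other settings tried.

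Inflammatory genes that NF-kB induces were mostly on the higher side. Acod1, the mitochondrial enzyme that makes itaconate in activated macrophages, was among the brightest genes named. Its levels were 5.0 in siTfe3/Tfeb iron, 3.71 in siTfe3/Tfeb, 5.32 in siGFP iron and 5.31 in siGFP. Only the siTfe3/Tfeb array without iron stood apart, by 2.45-fold from its iron counterpart, while the siGFP response was 0.01. The difference was 1.28 with a spot SD of 0.106 (probe on chromosome 14, 103455171 to 103455231, mm9). Tnip3, which binds the NF-kB inhibitor A20, had 2.42, 1.60, 2.13 and 2.38 in the same order of arrays. Again the siTfe3/Tfeb array without iron was the low one, and the difference was 1.07, though a second, bright probe gave 0.59. By that probe the levels were 1.25, 1.02, 1.72 and 2.08, with both siTfe3/Tfeb arrays below both siGFP arrays. Of the 28 measured NF-kB genes 24 lay above 0 and 4 below, with a median of 0.39 (0.25 to 0.46 over the settings). The list's median response was 0.04 in siTfe3/Tfeb cells and -0.235 in siGFP cells. Against siGFP the list's median in siTfe3/Tfeb cells was -0.11 with iron and -0.45 without it. A 1.5-fold higher response was seen for 8 of the 28, against 2.6% of all measured genes. These were Acod1, Tnf, Ptgs2, Traf1, Nos2, Nfkbia, Tnfaip3 and Birc3, of which the last 4 were named after their values were seen. Tnf, the cytokine, had responses of 1.29 and 0.42 and a second probe at 0.95 against 0.87 for the bright one. Ptgs2, the inducible cyclooxygenase, had 1.85 and 1.05. In the other direction stood the dim Lta at -1.32.

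CC chemokines did not move as a group. Ccl12, a monocyte attractant of mice, had levels of -1.10, -2.06, 0.05 and 0.16 in the order siTfe3/Tfeb iron, siTfe3/Tfeb, siGFP iron and siGFP. Both siTfe3/Tfeb arrays lay below both siGFP arrays, and the difference of responses was 1.07 with a spot SD of 0.339. Of 8 measured CC chemokines 4 lay above 0 and 4 below. Ccl4 had 0.33, Ccl6 -0.51 and the dim Ccl7 -1.39. The sign of that list's median (0.01) turned with quantile normalization and with normexp background correction.

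Genes of the type I interferon response were nearly all on the higher side. Of 46 measured, 42 lay above 0 and 4 below, with a median of 0.29 (0.26 to 0.36 over the settings). In this list 11 were 1.5-fold higher and none 1.5-fold lower, against 2.6% and 2.49% of all measured genes. The median response was -0.06 in siTfe3/Tfeb cells and -0.41 in siGFP cells, so the levels were lower with iron in siGFP cells and near no change in siTfe3/Tfeb cells. Against siGFP the list's median was lower in siTfe3/Tfeb cells both with iron (-0.35) and without it (-0.62). Cxcl10, a chemokine that interferons induce, had levels of 2.50 in siTfe3/Tfeb iron, 1.77 in siTfe3/Tfeb, 3.29 in siGFP iron and 3.75 in siGFP. Both siTfe3/Tfeb arrays lay below both siGFP arrays. It was 1.67-fold higher with iron in siTfe3/Tfeb cells and 1.37-fold lower in siGFP cells, a difference of 1.19 with a spot SD of 0.147. Rsad2, the antiviral enzyme viperin, had 0.75, 0.26, 1.61 and 2.06 in the same order. Its difference was 0.95, and a second, dim probe gave 0.94. Ifit1, which binds foreign RNA, had -1.64, -1.81, -0.15 and 0.60, with responses of 0.17 and -0.75. The antiviral GTPase Mx1 had -0.34 and -1.12, a difference of 0.77, and a dim second probe gave 1.28. Ifit3 had 0.20 and -0.56.

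Promoters were read in the RefSeq table (GRCm38.p6), 250 bases before to 50 after each start. The searched letters were taken on both strands. Of 32851 promoters in the table, 3.44% held the core of the interferon-stimulated response element, which is GAAA, any 2 bases, then GAAA. It stood in 21 of 41 promoters of the interferon list (51.2%), for 34 of its 47 genes that matched, a list made of known interferon targets. Of the 20 genes with the highest difference of responses, 17 matched with 1 promoter each, and 4 held the letters (23.5%). These were the interferon genes Cxcl10, Rsad2 and Ifit1 and the acute phase gene Saa3. The stretches are shown with 25 bases on each side, on the strand of the gene, and capitals mark the letters or their reverse complement. Ifit1 held them 2 times.
Cxcl10 (chr5:92349068-92349127, minus strand): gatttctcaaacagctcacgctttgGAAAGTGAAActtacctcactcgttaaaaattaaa
Rsad2 (chr12:26456538-26456597, minus strand): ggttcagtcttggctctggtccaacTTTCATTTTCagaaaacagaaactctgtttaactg
Ifit1 (chr19:34640760-34640838, plus strand): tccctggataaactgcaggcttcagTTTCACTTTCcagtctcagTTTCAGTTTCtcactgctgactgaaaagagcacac
Saa3 (chr7:46715767-46715826, minus strand): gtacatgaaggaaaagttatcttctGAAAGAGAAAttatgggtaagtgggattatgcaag
Cxcl10 also held the NF-kB letters, which are GGGA, any 2 bases, then TTCC and which 1.47% of all promoters held, and its stretch is given for that reason.
Cxcl10 (chr5:92349014-92349073, minus strand): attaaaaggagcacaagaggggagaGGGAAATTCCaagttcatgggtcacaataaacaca

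The AP-1 letters TGACTCA stood in 3 of the 17 promoters (17.6%), those of Cxcl10, Rsad2 and Itgax, against 5.2% of all promoters. The E-box CACGTG, the core of the element that Tfe3 and Tfeb bind, stood in 0 of the 17 promoters of the higher genes and in 1 of 18 promoters (5.56%) of the 20 genes with the lowest difference, that of Bcar3. It stood in 7.15% of all promoters and in 10.5% of those of bright genes. The longer TCACGTGA stood in none of either set and in 0.974% of all promoters. TGACNNNGC (12.4% of all promoters), the antioxidant letters, stood in 3 promoters of each set, and in Cxcl10 they overlapped the AP-1 letters. TCACNCCAC, the sterol letters (1.24% of all promoters), stood in Saa3 and Dlg3. A match to such short letters is a description of the promoter and no binding was measured.

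For some surface receptors of myeloid cells iron gave a higher level in both siRNA groups, and more so in siTfe3/Tfeb cells. Clec4n encodes Dectin-2, a lectin that recognises fungal mannans. Its levels were 3.35 in siTfe3/Tfeb iron, -0.97 in siTfe3/Tfeb, 4.16 in siGFP iron and 0.89 in siGFP. With iron it was 20.1-fold higher in siTfe3/Tfeb cells and 9.65-fold higher in siGFP cells, and both siTfe3/Tfeb arrays lay below their siGFP counterparts. Treml4, a receptor of the TREM family, had 1.01, -2.12, 0.64 and -1.35, so it was 8.77-fold higher with iron in siTfe3/Tfeb cells and 3.99-fold higher in siGFP cells. Treml4 differed by 1.14 (spot SD 0.339) and Clec4n by 1.06 (0.137). Itgax, the integrin chain CD11c, had -0.67, -2.68, 2.85 and 1.77, and its responses were 2.02 and 1.08. In both iron states Itgax was far lower with siTfe3/Tfeb siRNA, by log2 differences of -3.51 with iron and -4.45 without. Of 15 measured integrin chains 10 lay above 0 and 5 below, with a median of 0.12. Afp, the fetal serum protein alpha-fetoprotein, had 0.39, -2.33, 2.08 and 0.48, and its difference of 1.12 was between 0.68 and 1.19 over the settings.

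Below the 2-fold limit the next 9 bright genes of the higher direction held further immune and lipid genes. Mogat1, an enzyme of triglyceride synthesis, had responses of 1.56 in siTfe3/Tfeb cells and 0.61 in siGFP cells. Bcl2l15, of the Bcl-2 family of cell death regulators, had 1.36 and 0.41, and the kinase gene Plk3 had 1.64 and 0.76. Gpr84, a receptor for medium-chain fatty acids, had 0.47 and -0.41. Il4i1, a secreted oxidase of phenylalanine, had 0.19 and -0.71. Dmpk, a muscle protein kinase, had -0.48 and -1.37. The differences of these 6 genes lay between 0.88 and 0.95.

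**Figure D2:**
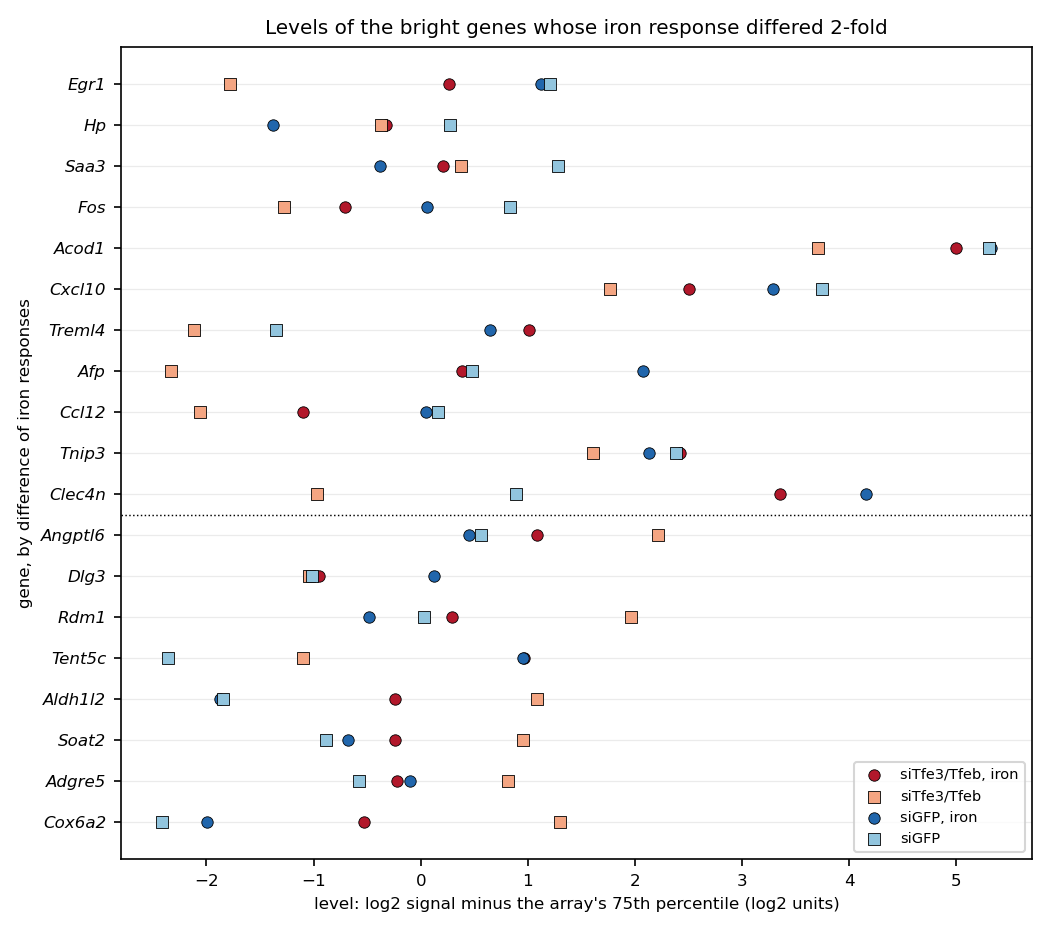
Levels (log2 signal minus the 75th percentile of the array) of the 19 bright genes with a 2-fold difference of responses, 1 marker for each of the 4 arrays. Red and orange mark siTfe3/Tfeb with and without iron, dark and light blue siGFP with and without iron. Above the dotted line the siTfe3/Tfeb array without iron lies below the siGFP array without iron in all 11 genes, and below the line it lies above it in 7 of 8.

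On the lower side, Cox6a2 had the largest difference. It encodes the muscle form of a subunit of cytochrome c oxidase, the terminal enzyme of respiration. Its levels were -0.53 in siTfe3/Tfeb iron, 1.30 in siTfe3/Tfeb, -2.00 in siGFP iron and -2.41 in siGFP (probe on chromosome 7, 135349160 to 135349219, mm9). Both siTfe3/Tfeb arrays lay above both siGFP arrays. In siTfe3/Tfeb cells it was 3.54-fold lower with iron and in siGFP cells 1.33-fold higher, a difference of -2.24 with a spot SD of 0.340. The other subunits of the respiratory chain did not share this: of 41 measured, 18 lay above 0 and 23 below, with a median of -0.01 whose sign turned with median centring and with the series matrix values, and Cox6a2 alone passed 1.5-fold. Cox7a1, another muscle form, had 0.21.

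Among targets of Atf4, the 5 with the lowest difference were the metabolic enzymes Cth, Aldh1l2, Gpt2, Asns and Pck2. Aldh1l2, the mitochondrial 10-formyltetrahydrofolate dehydrogenase, had levels of -0.24 in siTfe3/Tfeb iron, 1.09 in siTfe3/Tfeb, -1.88 in siGFP iron and -1.84 in siGFP. In siTfe3/Tfeb cells it was 2.51-fold lower with iron, and it had a response of -0.03 in siGFP cells, a difference of -1.29, and dimmer probes gave -1.89 and -0.85. Asns, asparagine synthetase, was among the brightest of these, with 4.88, 5.67, 4.68 and 4.48 (probe on chromosome 6, 7625171 to 7625228, mm9). Its siTfe3/Tfeb array without iron was the high one, and its difference was -0.99 with a spot SD of 0.0884 and -1.17 by a second probe. Pck2, the mitochondrial phosphoenolpyruvate carboxykinase, had 2.73, 3.87, 1.51 and 1.66, a difference of -0.98, and -1.12 by a second, dim probe. Gpt2, the mitochondrial alanine transaminase, had 0.53, 1.49, -0.35 and -0.39, with -0.98 by a second, dim probe. Cth, the cystathionine gamma-lyase of cysteine synthesis, was dim and differed by -1.73.

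Of the 35 measured Atf4 targets 27 lay below 0 and 8 above, with a median of -0.30 (-0.30 to -0.23 over the settings). The list's median response was -0.36 in siTfe3/Tfeb cells and 0.09 in siGFP cells, and its median difference between the siRNAs was 0.39 with iron and 0.72 without. Of the 35 genes 11 were 1.5-fold lower, against 2.49% of all measured genes, and 1 was 1.5-fold higher, against 2.6%. Besides the 5 above, the lower ones were Ddit3, Psph, Slc6a9, Trib3, Atf5 and Chac1, between -0.79 and -0.59, named after their values were seen. The response of Ddit3, which encodes the stress factor CHOP, was -0.51 in siTfe3/Tfeb cells and 0.28 in siGFP cells, though its second probe gave a difference of -0.06. Slc7a11, the cystine importer, is a target of Nrf2 as well as of Atf4, and it went the other way, with responses of 1.63 and 1.03. The Atf4 transcript itself differed by -0.08. Aminoacyl-tRNA synthetases, which charge tRNAs and of which several are Atf4 targets, had a median of -0.22, with 14 of 20 below 0. Lars had -0.61, Cars -0.50 and Nars -0.47, each with an siGFP response within 0.07 of 0.

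The letters TGATGNAA, the core of the element that Atf4 binds with a C/EBP partner, stood in 3.97% of all promoters. They stood in 12 of 41 promoters of the Atf4 list (29.3%, 34 of 40 genes matched), a list made of known Atf4 targets. Of the 20 genes with the lowest difference 13 matched, with 18 promoters, and 3 of these promoters held the letters (16.7%), those of Asns, Pck2 and Arid5a. In the higher set 1 of 17 promoters held them, that of Bcl2l15. The stretches are shown as above, with capitals for the letters or their reverse complement, and the one for Asns ends at the base before the start.
Asns (chr6:7693210-7693257, minus strand): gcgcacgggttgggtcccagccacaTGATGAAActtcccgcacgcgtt
Pck2 (chr14:55540138-55540195, plus strand): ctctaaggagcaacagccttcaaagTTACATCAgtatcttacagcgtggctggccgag
Arid5a (chr1:36307544-36307601, plus strand): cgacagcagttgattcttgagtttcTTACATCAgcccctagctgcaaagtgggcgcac

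Other genes of the lower side had varied roles. Adgre5, the adhesion receptor CD97, had levels of -0.22 in siTfe3/Tfeb iron, 0.81 in siTfe3/Tfeb, -0.10 in siGFP iron and -0.57 in siGFP. The siTfe3/Tfeb array without iron was the high one, and with iron Adgre5 was 2.05-fold lower in siTfe3/Tfeb cells and 1.39-fold higher in siGFP cells. Soat2, which esterifies cholesterol, had -0.24, 0.95, -0.68 and -0.88, a difference of -1.40, and -0.996 by a second, dim probe. Rdm1, a protein with a RAD52 motif, had 0.29, 1.96, -0.48 and 0.03, a difference of -1.16, and -1.03 by a second, dim probe. Angptl6, a secreted angiopoietin-like protein, had 1.09, 2.21, 0.45 and 0.57. In Soat2, Rdm1 and Angptl6, as in Adgre5, the siTfe3/Tfeb array without iron was the high one.

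In Tent5c the lower response was a smaller increase, and in Dlg3 the level was higher with iron in siGFP cells alone. Tent5c, a poly(A) polymerase, had levels of 0.97 in siTfe3/Tfeb iron, -1.10 in siTfe3/Tfeb, 0.95 in siGFP iron and -2.36 in siGFP. The iron arrays were equal within the spot SD of 0.339, and with iron Tent5c was 4.18-fold higher in siTfe3/Tfeb cells and 9.91-fold higher in siGFP cells. Dlg3, a scaffold protein of cell junctions, had -0.95, -1.04, 0.12 and -1.01, so the siGFP iron array alone was high. Its difference was -1.05 with a spot SD of 0.340. Bcar3, an adaptor of adhesion signalling, had responses of 1.31 and 2.19, and Pmp22, a myelin membrane protein also found in other cells, had 1.31 and 2.15.

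The remaining lower genes were all under 2-fold. Slc46a3, a lysosomal transporter, had -0.78 in siTfe3/Tfeb cells and 0.19 in siGFP cells. The histone gene H2bc21 had -0.91 and -0.02 (a second probe gave a difference of -0.69, and probes of histone genes can read near-identical copies), and the noncoding Cep83os had -1.23 and -0.34. Arid5a, a protein that stabilises inflammatory transcripts, had -0.19 and 0.67. The differences of Spaca9 and Igfbp6 were -0.83 and -0.79.

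For each gene the difference of iron responses is also the siRNA difference with iron minus that without iron, from the same 4 values. All 11 genes with the higher response were lower in siTfe3/Tfeb than in siGFP without iron, with a median of -1.86, and the median with iron was -0.76. Of the 8 genes with the lower response 7 were higher in siTfe3/Tfeb without iron, and the medians were 0.54 with iron and 1.74 without. The gap between the siRNAs was thus smaller with iron in 10 of 11 and in 7 of 8 genes, and in 60.3% of all bright genes. A 2-fold gap was seen for 3 of the 11 with iron and for 7 without, and for 3 of the 8 with iron and for 7 without. Over all bright genes 1.22% had a 2-fold siRNA difference with iron and 2.29% without. The 11 and the 8 genes were chosen for a large difference of the same 4 values, so nothing is read from their counts. The same applies to the genes at a lower limit. The response was 1.5-fold higher for 112 bright genes (1.15%) and 1.5-fold lower for 60 (0.617%), and the gap was smaller with iron in 82 of the 112 and in 51 of the 60.

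The siTfe3/Tfeb array without iron stood apart from the other 3 more often than any other array. An array was counted as standing apart where its gap to the nearest of the others exceeded the range of those 3. Among the 11 genes it was the low one in 4, the siGFP array was the high one in 1, the siGFP iron array the low one in 1, and 5 had no such array. Among the 8 it was the high one in 4 and the siGFP iron array in 1. Among the 112 and the 60 genes at 1.5-fold it was the low one in 32 and the high one in 24. Over all 9718 bright genes it was the low one in 708 and the high one in 934, and no single array stood apart in 5926. With 1 culture in each group, a deviation of that culture and a changed iron response cannot be told apart.

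A second probe measures the same RNA of the same cultures again. Of the 54 other probes of the 112 genes, 46 had the same sign, and of the 34 other probes of the 60 genes, 31 had. Over all bright genes 5393 of 8422 other probes had the sign of the main probe. For the 2-fold genes the 1 other probe in the higher set and the 4 in the lower set all had the same sign, and 2 of the 4 were 2-fold. The other probe of the higher set was bright and all 4 of the lower set were dim. Bright other probes alone had the same sign in 27 of 29 for the 112 genes, in 10 of 10 for the 60 and in 2671 of 3863 over all bright genes.

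Beyond the lists above, metabolic and stress genes showed small shifts to the higher side. Sterol synthesis genes had a median difference of 0.27, with 19 of 23 above 0. Idi1, an isomerase of that pathway, had responses of 0.94 in siTfe3/Tfeb cells and 0.47 in siGFP cells. Fatty acid synthesis genes had 0.20, with 11 of 15 above 0, and Fasn, the fatty acid synthase, differed by 0.47. Chaperones of the endoplasmic reticulum had 0.24, with 17 of 24 above 0. Hspa5, the major chaperone there, had 0.57 and 0.09 (other probes gave differences of 0.41 and 0.52), Hsp90b1 0.49 and 0.02, and Sdf2l1 0.68 and 0.11. Nrf2 antioxidant targets had 0.15, with 24 of 31 above 0 and 4 of them 1.5-fold higher, against 2.6% of all measured genes. Gclm, which acts in glutathione synthesis, had 2.28 and 1.68, and the glutathione transferase gene Gstp1 0.71 and 0.12. Targets of p53 had 0.17, with 19 of 26 above 0, and the cell cycle inhibitor Cdkn1a had 0.88 and 0.28 (other probes gave differences of 0.67 and 0.86). None of the 23 sterol, 15 fatty acid or 24 chaperone genes passed 1.5-fold.

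Mitotic genes were on the lower side in 31 of 32 cases, with a median of -0.27 (-0.28 to -0.20 over the settings). Their median response was -0.45 in siTfe3/Tfeb cells and -0.19 in siGFP cells. Nusap1, a spindle protein, had -0.86 and -0.35, and Prc1, a cross-linker of the spindle midzone, had -0.56 and -0.17, with 4 other Prc1 probes between -0.64 and -0.37. No mitotic gene passed 1.5-fold. DNA replication genes had a median of 0.03, with 17 of 30 above 0.

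Genes that Tfe3 and Tfeb are known to activate had small differences of iron responses, mostly on the lower side. Vacuolar ATPase subunits, which acidify lysosomes, had a median of -0.11, with 14 of 18 below 0. Atp6v1d had 0.18 in siTfe3/Tfeb cells and 0.60 in siGFP cells, and Atp6v1a 0.48 and 0.84. Atp6v0d2, a subunit rich in osteoclasts and macrophages, lay on the other side, with 2.69 and 2.34. Its difference was between -0.12 and 0.42 over the settings, so its sign was not kept. Lysosomal membrane proteins had -0.12 (23 of 31 below 0) and lysosomal hydrolases -0.05 (32 of 50 below 0), a median that was 0.02 with median centring. Psap, the precursor of the saposins, had 0.11 and 0.49. Acp5, the tartrate-resistant acid phosphatase, had 1.13 and 0.49. Targets outside the lysosome had -0.16, with 14 of 19 below 0. Among them Fnip2, a partner of folliculin, had 0.55 and 1.09 (a second probe differed by -0.20), Gpnmb, a glycoprotein of stressed lysosomes, 0.97 and 1.42, and Map1lc3b, the autophagosome protein LC3B, 0.27 and 0.66. Autophagy genes had -0.10, with 26 of 37 below 0. A lower difference of responses did not mean a lower level than in siGFP cells. Without iron, the median siRNA difference was -0.05 for vacuolar ATPase subunits, 0.13 for hydrolases and 0.11 for membrane proteins. It was 0.18 for targets outside the lysosome and 0.27 for autophagy genes. With iron these medians were -0.15, 0.06, 0.02, 0.02 and 0.22 in the same order. In these 5 lists, most of whose genes were bright, no gene passed 2-fold. The 1.5-fold genes were Acp5 and Slc15a3, both higher, where 2.6% of all measured genes and 1.15% of bright genes were.

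Of the iron handling genes 1 differed 1.5-fold between the siRNA groups. Of 28 measured 17 lay above 0 and 11 below, with a median difference of 0.10. The gene past 1.5-fold was the dim Erfe at -1.66, where 2.49% of all measured genes were 1.5-fold lower. Hmox1, which breaks down haem, had responses of 3.45 in siTfe3/Tfeb cells and 2.93 in siGFP cells, a difference of 0.53 with a spot SD of 0.0884. Ceruloplasmin, encoded by Cp, had -0.37 and -0.67. Tfrc, the transferrin receptor that takes up iron, was dim and had -0.46 and -0.89, a difference of 0.43 with a spot SD of 0.403, and 0.66 by a second dim probe. Ferroportin and ferritin were added after their values were seen. Slc40a1, the iron exporter ferroportin, had levels of 1.80 in siTfe3/Tfeb iron, -2.74 in siTfe3/Tfeb, 1.30 in siGFP iron and -2.95 in siGFP, and its responses differed by 0.29 with a spot SD of 0.339. The ferritin heavy chain gene Fth1 differed by 0.10. Ftl1, the light chain, differed by -0.01 by its brightest probe and 0.41 by another. The metallothioneins Mt2 and Mt1 had 0.41 and 0.39, and their list with zinc transporters had a median of 0.18, with 6 of 8 above 0.

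The medians of the other lists of more than 4 measured genes lay between -0.11 and 0.10. They were 0.10 for glycolysis and the hypoxia response (29 of 34 above 0), 0.10 for osteoclast genes (10 of 17), 0.09 for proteasome subunits (24 of 31), 0.08 for Toll-like receptors and Cd14 (10 of 15), 0.05 for heat shock chaperones (11 of 17), 0.04 for antigen presentation (8 of 14) and 0.01 for liver X receptor targets (5 of 10). Siglec, CD200 receptor and adhesion receptor genes had -0.11 (5 of 11 above 0), with 2 genes 2-fold lower, Adgre5 and the dim Siglecf, where 0.347% of all measured genes were. Matrix metalloproteinases and inhibitors had -0.06 (5 of 11), and among them the dim Mmp9 stood at 1.77. The median of macrophage markers was 0.09 (8 of 11). The few measured markers of other cells had medians of -0.07 for fibroblasts, 0.23 for epithelium, -0.83 for endothelium (Vwf at -1.30 and Pecam1 at -0.36), -0.11 for lymphocytes and -0.24 for neutrophils. Among these markers all but Cd3e and Cd4 were dim. The sign of the median turned in at least 1 setting for the osteoclast, metalloproteinase, Siglec and lymphocyte lists.

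**Figure D3:**
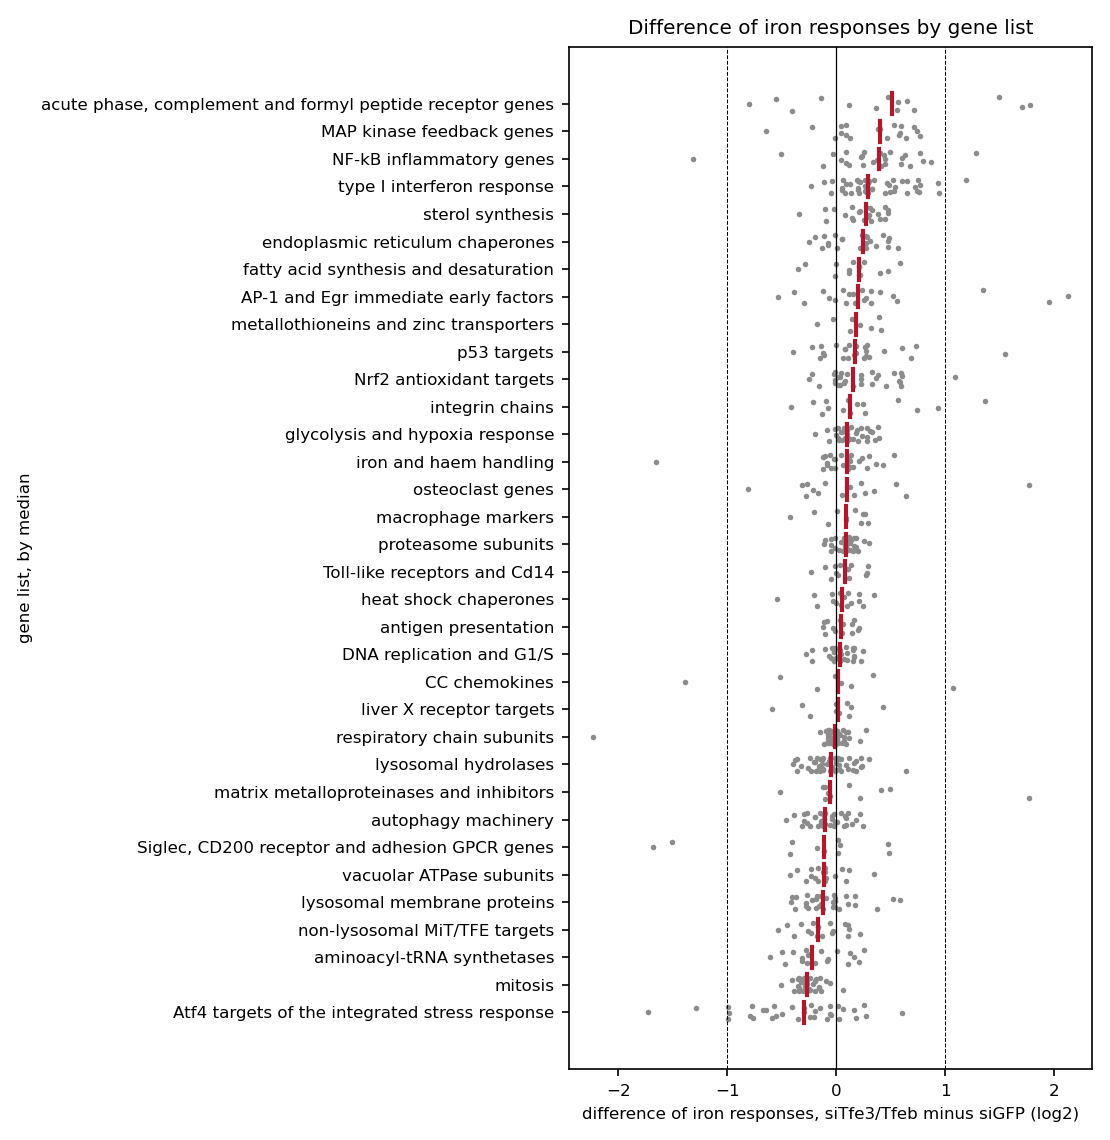
Difference of iron responses (log2, siTfe3/Tfeb minus siGFP) of each measured gene, 1 grey point each, for the lists with at least 5 measured genes, with the median as a red bar. Dashed lines mark 2-fold. The medians run from -0.30 for Atf4 targets to 0.51 for acute phase genes, and most points lie inside the dashed lines.

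The dim genes with the largest differences are given as values only. Higher were Fosl1 (1.95), Fpr2 (1.77), Mmp9 (1.77), the olfactory receptor gene Olfr1500 (1.61) and the p53 target Eda2r (1.55). Lower were Cth (-1.73), Fam166b (-1.71), Siglecf (-1.69, and -1.38 by a second probe), Erfe (-1.66) and Serpinb1c (-1.5). Their spot SDs were between 0.402 and 0.456. At their smallest over the settings Fosl1 had 0.85, Eda2r 0.57, Siglecf -0.88, Erfe -0.67, Fam166b -0.60 and Serpinb1c -0.37, all inside 2-fold. Fpr2 (1.62), Mmp9 (1.36), Olfr1500 (1.02) and Cth (-1.27) stayed past 2-fold.

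**Figure D4:**
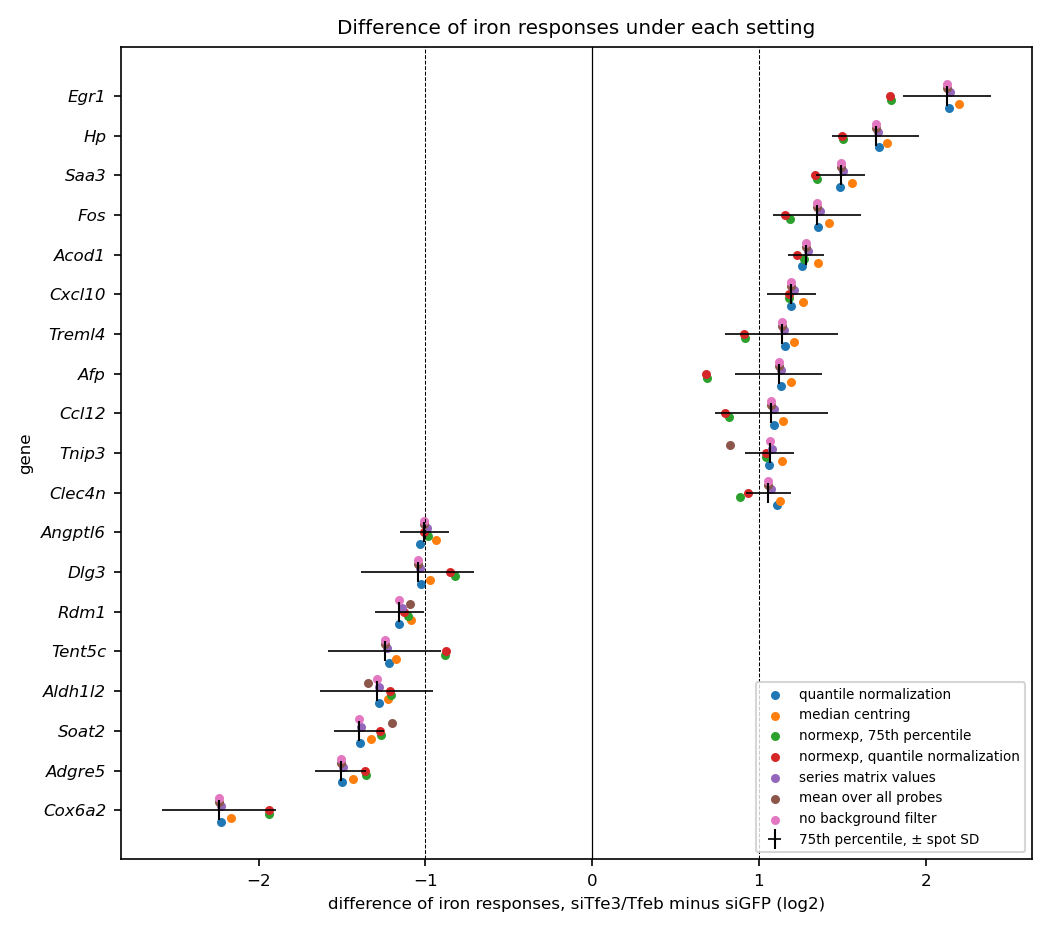
Difference of iron responses (log2) of the 19 bright genes under the 75th percentile scaling (black bar with the spot SD as a line) and under 7 other settings (coloured points). The points of each gene stay on one side of 0, and in 8 genes at least 1 point lies inside the 2-fold limit, marked by dashed lines.

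The 8 genes that came inside the 2-fold limit in at least 1 setting were the following. Of the higher set they were Afp (0.68 at its smallest), Ccl12 (0.79), Tnip3 (0.83), Clec4n (0.88) and Treml4 (0.91). Of the lower set they were Angptl6 (-0.94), Tent5c (-0.88) and Dlg3 (-0.82). The other 11 genes, with Egr1, Hp and Cox6a2 among them, stayed past 2-fold in all 7 settings.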

How the data were processed

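Cy3-labelled total RNA of 4 RAW264 cultures was measured on Agilent SurePrint G3 one-colour mouse arrays, 1 array in each group. Per the file headers, the deposited scanner intensities were made with Agilent Feature Extraction 12.0.3.1, which subtracted background and detrended each array and did not scale between arrays. The series matrix that the authors deposited gives log2 values, from which each probe's median over the arrays had been taken out. Set against the scanner values over 13825 probes, the iron responses in it had a slope of 1.0, so scale and direction are those of the scanner files. Its normalization is not given in the sources used here. Its column medians were 0.0013 for siTfe3/Tfeb iron, -0.087 for siTfe3/Tfeb, 0.0223 for siGFP iron and -0.0042 for siGFP.

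Values were log2 of the processed signal minus the array's 75th percentile over 59305 non-control spots. Spots flagged as outliers (61 to 66 per array) were left out, and spots of 1 probe were averaged. Of 56602 probes 33764 were named by RefSeq accession and 9866 by symbol (GRCm38.p6, for names and promoters only), and 12972 had no gene here. There was 1 slide and 1 scan run. The spot SD came from probes with at least 10 spots per array.

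No test was possible with 1 array in each group, and 2-fold was the rule of size. The members and the 39 gene lists (775 of 873 genes measured, 26 in more than 1 list) were chosen with earlier results of these data known. Named were Tfe3, Tfeb, Mitf and Tfec, the 20 largest bright differences in each direction without identifier-only names, bright genes with opposite 1.5-fold responses, the 5 largest dim differences in each direction and up to 5 genes of each list. Other names are marked as chosen after their values were seen. A few genes that this rule names are not reported here.

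The alternatives tried were median centring, quantile normalization, background correction by normexp (offset 50, limma 3.58.1 in R 4.3.3) before percentile or quantile scaling, the series matrix, the mean over all probes, no background filter and other level limits. The arithmetic was tested on simulated data (Python 3.11.15, numpy 2.4.6, pandas 2.3.3).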

Additional observations from a re-analysis of the deposited data

Results flagged for a closer look

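Of the 19 bright genes with a 2-fold difference of responses, 9 had an iron response above 0 in one siRNA group and below 0 in the other. Over all bright genes this held for 2340 of 9718, and the 19 were chosen for a large difference of these same responses, so nothing is read from the count of 9. Each group is 1 array, and the difference was not tested. Above 0 in siTfe3/Tfeb cells and below 0 in siGFP cells were Egr1 (difference 2.13), Hp (1.70), Fos (1.35), Cxcl10 (1.19), Ccl12 (1.07) and Tnip3 (1.07). The reverse held for Cox6a2 (-2.24), Adgre5 (-1.51) and Soat2 (-1.40). A single response is a difference of 2 levels. Its spot SD was 0.104 for levels from 0 to 4, 0.109 from -1 to 0 and 0.323 at or below -1. The siGFP response of Egr1 (-0.09) and the siTfe3/Tfeb response of Hp (0.05) were smaller than the spot SD at their levels. The siGFP response of Ccl12 (-0.12) was only slightly larger. Both siGFP levels of Cox6a2 lay below -1, and its siGFP response (0.42) was not far above 0.323.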

How the results depend on the processing

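Against 11 higher and 8 lower bright genes (57.9% higher), normexp background correction gave 7 and 6 with the 75th percentile, and 7 and 8 (46.7%) with quantile normalization. Median centring, which added 0.071 to the median of all genes, gave 15 and 6 (71.4%). Quantile normalization gave 11 and 9, and the series matrix and the mean over all probes each gave 11 and 7. With no background filter the counts were 11 and 8. Genes of all levels gave 39 and 48, and a mean level above 0 gave 7 and 2. All 40 of the 20 largest differences in each direction kept their sign under the 7 settings run for genes, and 12 to 21 were 2-fold. The median of lymphocyte markers was -0.11 and turned to 0.0516 with normexp and the 75th percentile and 0.0049 with quantile normalization added, and that of the Siglec, CD200 receptor and adhesion receptor list was 0.015 with a mean level above 0. The acute phase median of 0.51 was 0.12 with no background filter, which adds genes not well above background. The level limits change how many genes enter, and for the other settings the cause was not tested. Lists use all measured genes, so all levels gave no other value for them. No paired analysis was possible because each group has 1 array, and for the same reason no replicate could be left out. Signal over background limits the dim genes, for most of which the spot SD was 0.456.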
